A study of Homo sapiens with 6 samples.

Results

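This report describes 41 genes of the lysosome, led by OSTM1 and CD68, in BT549 cells that do or do not express the microRNA miR-200c. The genes were chosen by symbol, as known lysosomal enzymes, membrane proteins, proton pump subunits, sorting receptors and a regulator. The choice was made with earlier results of these data known. Of the 41, 40 were measured on rows that name 1 gene, among 22085 genes in all, and 1824 of 924687 tested rows belonged to them. GLB1, the lysosomal beta-galactosidase gene, was named only on rows that also name TMPPE, so no value is given for it.

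BT549 is an established human breast cancer line of the triple-negative, mesenchymal kind. All 6 cultures carried the doxycycline-inducible construct pTripZ-200c and grew attached in RPMI with 10% serum. The 3 untreated cultures received no drug and the 3 doxycycline cultures received 1 µg/mL for 48 h. Total RNA of each went onto 1 array, so n = 3 per group, called A, B and C. The cultures were plated from a single engineered line, no culture with the drug but without the construct was analysed here, and p-values measure the spread between these plates. Effects of the drug itself and of miR-200c cannot be told apart.

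The lysosome is the acidic compartment in which cells break down proteins, glycans and lipids. A proton pump, the V-ATPase, acidifies it, the chloride-proton exchanger CLC-7 with its subunit OSTM1 carries chloride into it, and LAMP proteins line its membrane. Newly made hydrolases are carried there by mannose 6-phosphate receptors and by sortilin, and the transcription factor TFEB drives many lysosomal genes through a short promoter motif.

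Values are log2 intensities as deposited, and a gene's value is the mean over its rows, each of which measures an exon region or an exon junction. Differences are doxycycline minus untreated, tested in limma over all 22085 genes with Benjamini-Hochberg adjustment and a threshold of 0.05. Array medians ranged from 5.18 to 5.21. The arrays' 23 background rows reached 6.36, and a mean under that is called within the background range. MIR200C, on its single row, had a mean of 4.96 ± 0.26 in untreated cultures, within that range, and of 9.53 ± 0.024 in doxycycline (SD, n = 3). That row does not tell the 5p and 3p arms apart. Both mature sequences are shown because the microRNA is the agent of the study, with the seed (bases 2 to 8) in capitals, from RefSeq on GRCh38.p14 at chr12:6963703-6963724 for 5p and chr12:6963742-6963764 for 3p, plus strand.
hsa-miR-200c-5p: cGUCUUACccagcaguguuugg
hsa-miR-200c-3p: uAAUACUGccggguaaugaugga

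The labelled cell type was checked against markers. The 5 markers of mesenchymal breast lines all lay above the background range, with a mean level of 9.38 to 9.43 untreated and 9.12 to 9.15 in doxycycline. They did not move together: ZEB1, FN1 and SPARC fell (log2 changes -0.77, -0.41 and -0.23), CDH2 rose (0.15) and VIM did not pass (-0.09). All 4 measured luminal markers lay within the background range on every array. The same held for 10 of 10 macrophage markers, PTPRC, CD14 and CSF1R among them, with mean levels from 4.82 to 4.88 over the 6 arrays, and for 5 of 5 osteoclast markers. In bulk cultures, fewer cells of a kind and less RNA per cell cannot be told apart.

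Among the 40 measured lysosomal genes there were 9 falls and 4 rises, and the other 27 did not pass the threshold. The 9 that fell were OSTM1, CD68, CTSL1, PSAP, HEXA, GUSB, CTSA, LAMP1 and CTSB, and the 4 that rose were SORT1, LAMP3, ASAH1 and ATP6V1H. Falls thus made up 22.5% of the members, where 3.84% of all genes fell, and rises 10%, where 6.06% of all genes rose and 9.9% changed in either direction. Most members lay above the background range, so the nearer comparison is with genes that also did: of 34 such members 26.5% fell and 8.82% rose, and of 8518 such genes 7.47% fell and 11.7% rose. Because the members were chosen with earlier results of these data known, these shares describe the list and are not an independent test. The median log2 change was -0.07 over the 40 members and -0.01 over all genes. It was -0.11 over the 34 brighter members and 0.02 over the 8518 brighter genes. In 24 members, or 60%, the groups did not overlap, and over all genes 26% of groups did not. Both means lay within the background range in 13567 of all genes but in only 6 members, so these shares come from genes of unlike level. Among 188 other genes of lysosomal function and autophagy, described below, 41% had groups that did not overlap.

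The counts rested on small changes for most members. Of the 34 brighter members 4 had a log2 change larger than 0.5 in size, namely OSTM1, SORT1, CD68 and CTSL1. Without untreated replicate A 4 members fell, and without doxycycline replicate B 4 fell and 2 rose. Calls over all genes dropped in the same fits, to 2.69% lower without untreated replicate A and to 2.24% lower and 3.68% higher without doxycycline replicate B.

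**Figure D1:**
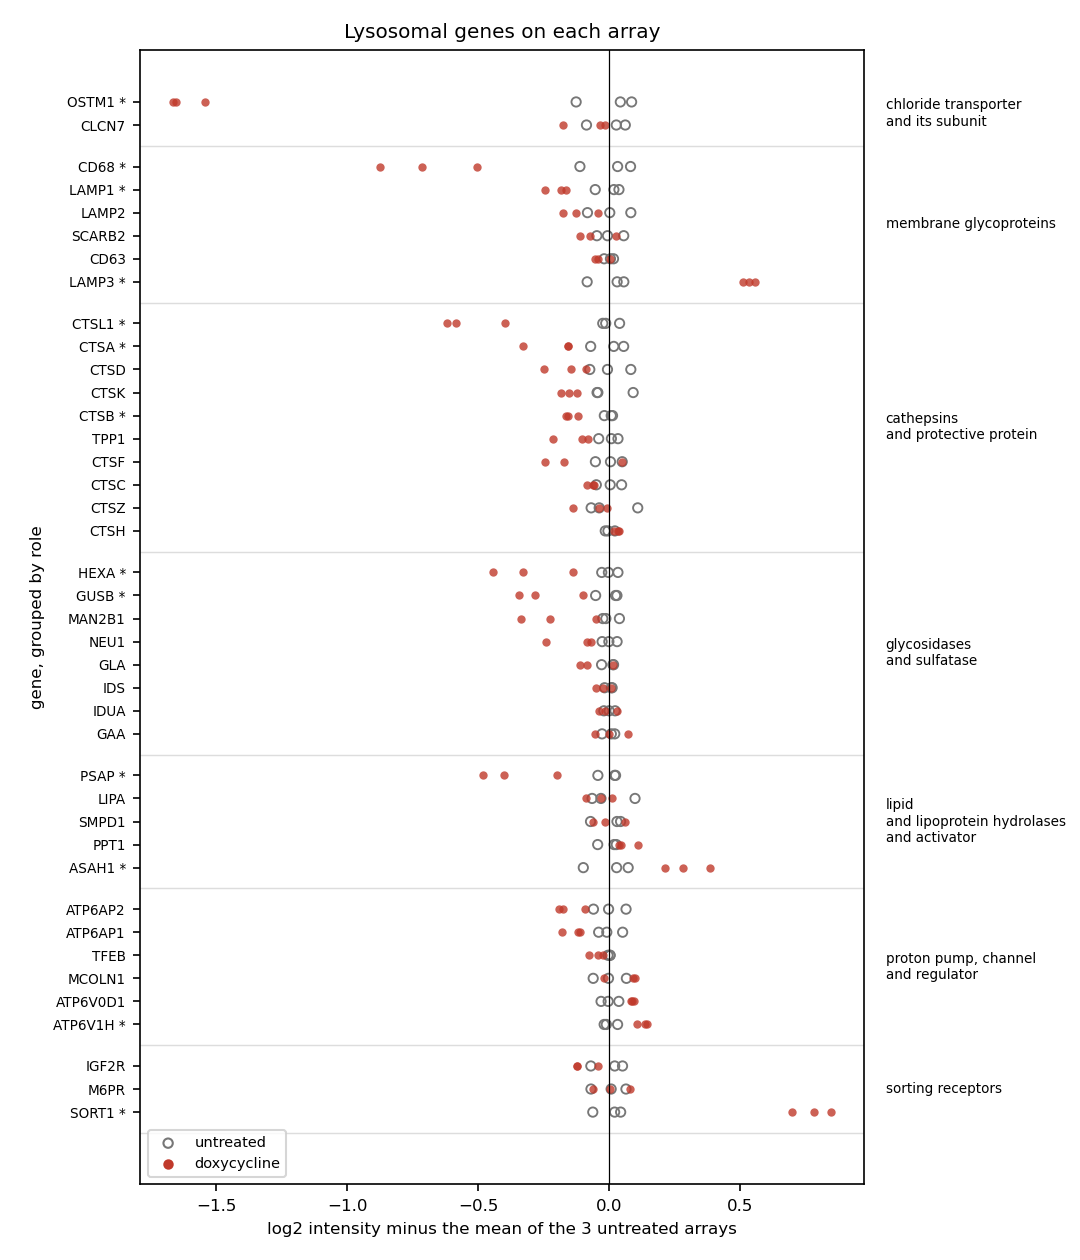
Log2 intensity of each of the 40 measured lysosomal genes on each array, minus the mean of the 3 untreated arrays, grouped by role, with open circles for untreated cultures, filled circles for doxycycline and an asterisk for genes past the threshold. OSTM1 lies farthest to the left, at a log2 change of -1.62, and SORT1 farthest to the right, at 0.77.

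OSTM1, which encodes the beta subunit of the lysosomal chloride-proton exchanger and is mutated in a severe form of infantile osteopetrosis, had the largest fall of all 22085 genes. In untreated cultures A, B and C its log2 intensity was 8.09, 7.92 and 8.13, and in doxycycline cultures 6.38, 6.40 and 6.51. The groups lay far apart, with means of 8.05 ± 0.11 and 6.43 ± 0.068 (SD, n = 3). The log2 change was -1.62 (SE 0.060, 95% interval -1.76 to -1.48), or 3.07-fold lower (adjusted p = 2.67e-06).

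The mean over rows understated the fall of the rows that carried signal. Of the 33 rows of OSTM1, 20 had a group mean above the background range, and all 20 were measured lower in doxycycline, with a median log2 change of -2.78, or 6.88-fold. This was also the lowest such median among 13017 genes with at least 3 rows of that kind. The other 13 rows lay within the range in both groups and had changes from -0.69 to 0.12. Of the 20 rows, 3 passed this filter through their untreated mean alone, so they could only be measured lower. Counts of such brighter rows in other genes carry the same limit, towards higher where the doxycycline mean alone passed.

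In the fit over all rows, 18 of the 33 rows of OSTM1 fell, 12 of them exon regions and 6 junctions, while 0.277% of all rows and 0.338% of rows that name 1 gene fell. Their changes ran from -3.58 to -1.29, that is from 11.9-fold to 2.45-fold lower. The junction row JUC06012175 had values of 10.72, 10.97 and 10.69 untreated and 7.05, 7.26 and 7.34 in doxycycline (log2 change -3.58, adjusted p = 4.32e-04). The exon region row PSR06024753 had 10.26, 9.96 and 10.17 untreated and 6.48, 6.71 and 6.75 in doxycycline, a log2 change of -3.48. Both rows lay far above the background range in untreated cultures. In doxycycline their means were 7.22 and 6.65, the latter near the top of that range at 6.36.

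Only 2 of the brighter OSTM1 rows did not pass. The row JUC06012172 went from 7.10 ± 0.063 to 6.87 ± 0.35 and its groups overlapped, with a log2 change of -0.23 (adjusted p = 0.736). The row PSR06024751 went from 8.15 ± 0.29 to 7.07 ± 0.21, a log2 change of -1.07 that missed the threshold (adjusted p = 0.0580). In 3 of the fallen rows the doxycycline mean lay within the background range, so those falls are lower bounds, from at least 1.81-fold to at least 8.64-fold lower.

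The partner of OSTM1, CLCN7, which encodes the exchanger CLC-7 itself, had values of 8.02, 8.06 and 7.91 untreated and 7.98, 7.82 and 7.96 in doxycycline. The groups overlapped, and the log2 change was -0.08 with a 95% interval of -0.20 to 0.05 (adjusted p = 0.512). None of its 57 rows passed the test over rows, although 36 of its 42 brighter rows were measured lower, with a median log2 change of -0.10. The interval of the CLCN7 change lies apart from that of OSTM1, and the difference between them was not tested.

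**Figure D2:**
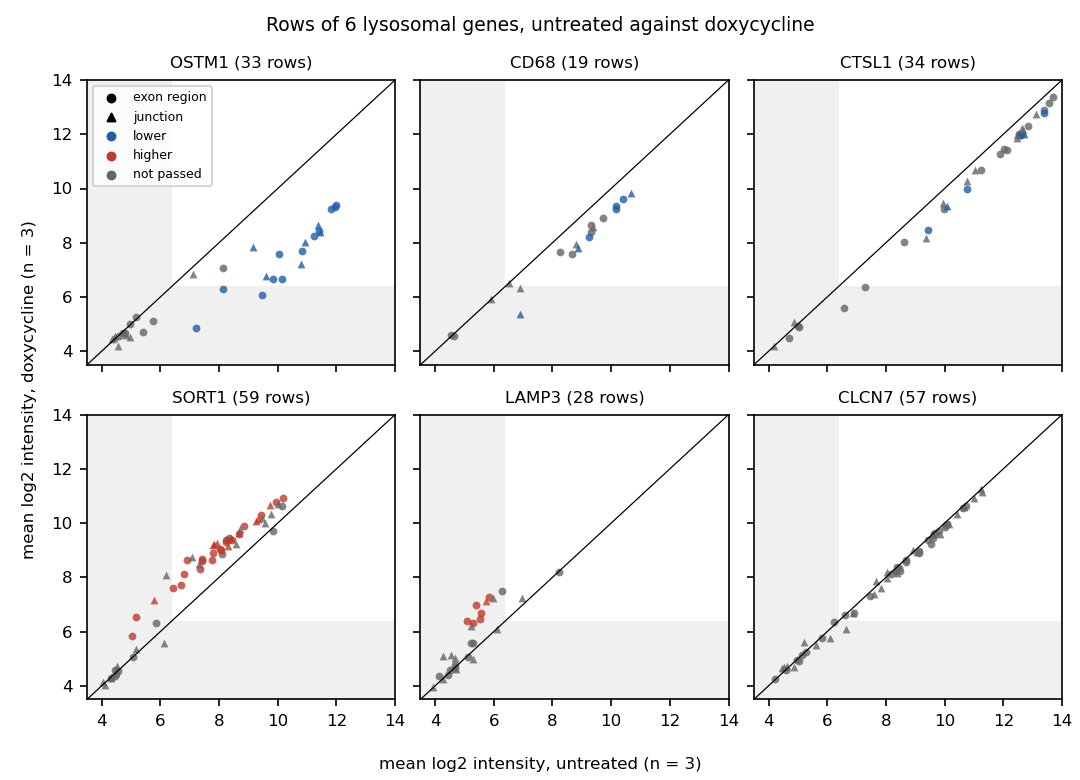
Mean log2 intensity of each row in doxycycline against untreated cultures (n = 3 each) for 6 lysosomal genes, with the background range shaded, circles for exon regions, triangles for junctions and colour for rows that passed the test over all rows. The brighter rows of OSTM1 lie far below the diagonal, those of CD68 and CTSL1 somewhat below it, those of SORT1 above it, and those of CLCN7 along it.

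Among the membrane glycoproteins, CD68 and LAMP1 fell and LAMP3 rose. CD68 encodes a heavily glycosylated relative of the LAMP proteins that is widely used as a macrophage marker. Its log2 intensity was 8.37, 8.42 and 8.22 untreated and 7.62, 7.46 and 7.83 in doxycycline. Each treated array lay below every untreated one, with means of 8.34 ± 0.10 and 7.64 ± 0.19 (SD, n = 3), a log2 change of -0.70 (SE 0.089), or 1.62-fold lower (adjusted p = 0.00169).

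Of the 19 rows of CD68, 16 lay above the background range, 15 of these were measured lower, and 7 passed the test over rows, 4 exon regions and 3 junctions. In 6 of the 7 both means lay above the background range, with log2 changes from -1.08 to -0.78. In the other one the doxycycline mean lay within it, which gives a fall of at least 1.43-fold. The exon region row PSR17001453 had values of 10.14, 10.18 and 10.18 untreated and 9.32, 9.30 and 9.45 in doxycycline (adjusted p = 0.00975). The macrophage markers named above lay within the background range, and none of the 10 passed, with log2 changes from -0.07 to 0.02.

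LAMP1, a major glycoprotein of the lysosomal membrane, had 9.70, 9.72 and 9.63 untreated and 9.50, 9.44 and 9.52 in doxycycline, a log2 change of -0.20 (SE 0.040, adjusted p = 0.0155). Its groups did not overlap, but the adjusted p was 0.0606 without untreated replicate A and 0.0703 without doxycycline replicate B. LAMP2, its close relative with a role in chaperone-mediated autophagy, had 10.58, 10.50 and 10.67 untreated and 10.41, 10.46 and 10.54 in doxycycline. Those groups overlapped, with a log2 change of -0.12 (adjusted p = 0.240).

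LAMP3, a family member known from dendritic cells and from interferon and stress responses, had 5.17, 5.30 and 5.28 untreated and 5.81, 5.76 and 5.78 in doxycycline. The treated arrays lay above all untreated ones, and the log2 change was 0.53 (SE 0.044, adjusted p = 1.61e-04), with both means within the background range. The adjusted p was 0.0547 with the row median in place of the mean. Among its 28 rows 10 had a group mean above that range, 8 of them in doxycycline alone, and 7 rows passed as higher. All of these 7 had untreated means within the background range. In 6 of them the doxycycline mean lay above it, which gives rises of at least 1.02-fold to at least 1.89-fold against its top. The largest bound belonged to the row PSR03036368, with 5.52, 6.13 and 5.83 untreated and 7.15, 7.33 and 7.37 in doxycycline.

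The tetraspanin gene CD63 had 8.48, 8.52 and 8.51 untreated and 8.50, 8.46 and 8.45 in doxycycline, a log2 change of -0.03 with a 95% interval of -0.11 to 0.04 (adjusted p = 0.670). SCARB2, which encodes LIMP-2, the carrier of glucocerebrosidase to the lysosome, had a log2 change of -0.05 (adjusted p = 0.605). Neither gene's groups were separate.

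Among 10 genes for cathepsins and other lysosomal peptidases, 3 fell and none rose, and 9 of the 10 were measured lower. CTSL1, now named CTSL, encodes cathepsin L, a cysteine protease of broad specificity. Its values were 10.45, 10.43 and 10.50 untreated and 9.87, 9.84 and 10.06 in doxycycline. The groups were clearly separate, with a log2 change of -0.53 (SE 0.058), or 1.45-fold lower (adjusted p = 7.34e-04). All 29 of its brighter rows were measured lower, with a median log2 change of -0.57, and 7 passed the test over rows.

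CTSA and CTSB showed smaller falls, and their calls were lost in most fits with an array left out. Over all such fits the log2 change ran from -0.25 to -0.16 for CTSA and from -0.16 to -0.14 for CTSB. CTSA, the protective protein that stabilises beta-galactosidase and neuraminidase, had 10.09, 10.06 and 9.97 untreated and 9.88, 9.71 and 9.88 in doxycycline (log2 change -0.22, SE 0.056, adjusted p = 0.0468). CTSB, another cysteine protease, had 9.76, 9.77 and 9.74 untreated and 9.64, 9.59 and 9.60 in doxycycline (log2 change -0.15, SE 0.033, adjusted p = 0.0236). Groups did not overlap in either gene. The adjusted p of CTSA passed only when untreated replicate C was the array left out (0.0493) and was 0.0541 to 0.150 in the other 5 such fits. That of CTSB passed only without doxycycline replicate A (0.0452) and was 0.0518 to 0.0963 in the other 5.

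The remaining 7 peptidase genes did not pass. CTSD, the main aspartic protease of the lysosome, had a log2 change of -0.16 (adjusted p = 0.116), and TPP1, the tripeptidyl peptidase lost in a childhood ceroid lipofuscinosis, one of -0.13 (adjusted p = 0.111), both with separate groups. CTSC, CTSF and CTSZ had changes of -0.07, -0.12 and -0.06. CTSK, the collagen-degrading protease of osteoclasts, and CTSH had both means within the background range, with changes of -0.15 and 0.03. All 4 rows of CTSK with a group mean above that range were measured lower, with a median log2 change of -0.49. Their lowest doxycycline mean was 5.88, within the range. A row that passed through its untreated mean alone could only be measured lower. Of 6 such rows of CTSH 4 were measured higher, with a median of 0.03.

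Of 8 measured genes for glycosidases and a sulfatase, 2 fell, none rose and 7 were measured lower. HEXA, the alpha subunit of beta-hexosaminidase that is mutated in Tay-Sachs disease, had 7.83, 7.77 and 7.80 untreated and 7.47, 7.36 and 7.66 in doxycycline (log2 change -0.30, SE 0.069, adjusted p = 0.0272). GUSB, the beta-glucuronidase gene often used as a reference in expression assays, had 7.32, 7.32 and 7.24 untreated and 7.01, 6.95 and 7.19 in doxycycline (log2 change -0.24, SE 0.062, adjusted p = 0.0434). In both genes every treated array was below the untreated ones, and doxycycline array C was the nearest to them. All 26 brighter rows of HEXA were measured lower (median log2 change -0.48), as were 33 of 36 brighter rows of GUSB (median -0.39), and no row of either passed over all rows.

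Both calls were lost in 5 of the 6 fits with 1 array left out and were kept without doxycycline replicate C. In the 5 fits the adjusted p ran from 0.0503 to 0.0935 for HEXA and from 0.0661 to 0.146 for GUSB. The 6 other genes of this kind did not pass. MAN2B1, the lysosomal alpha-mannosidase gene, had a log2 change of -0.21 (adjusted p = 0.0994) and NEU1, the neuraminidase gene, one of -0.13 (adjusted p = 0.161). NEU1 had 192 rows, of which 168 bear names of alternative haplotypes of its region, so they are repeats of a few exons. GLA and IDS, which encode alpha-galactosidase and iduronate sulfatase, had changes of -0.06 and -0.02. GAA and IDUA lay within the background range, with changes of 0.01 and -0.01.

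Genes of lysosomal lipid breakdown went both ways. PSAP, the precursor of the saposins that present sphingolipids to their hydrolases, had 9.48, 9.41 and 9.47 untreated and 9.05, 8.97 and 9.25 in doxycycline. It fell by 0.36 on the log2 scale (SE 0.067), or 1.28-fold, with separate groups and an adjusted p of 0.0112. That p was 0.0564 with the row median and 0.230 with junction rows alone. Among its 40 brighter rows 39 were measured lower, with a median log2 change of -0.47.

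ASAH1, which encodes acid ceramidase, had 8.20, 8.07 and 8.24 untreated and 8.38, 8.45 and 8.56 in doxycycline, so that it rose by 0.29 (SE 0.058, adjusted p = 0.0150). Of its 37 brighter rows 36 were measured higher, with a median log2 change of 0.38, and none passed over all rows. Without doxycycline replicate B its adjusted p was 0.0562. With a median over rows in place of the mean it was 0.342, and with rows above the background range alone 0.0688. SMPD1, LIPA and PPT1, which encode acid sphingomyelinase, acid lipase and a thioesterase, had changes of -0.01, -0.04 and 0.06 and did not pass.

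The genes of acidification and control had small changes in their gene means. Among the proton pump genes, ATP6V1H, a regulatory subunit of the V-ATPase, had 7.98, 7.99 and 8.04 untreated and 8.15, 8.14 and 8.11 in doxycycline. Its log2 change of 0.13 (SE 0.033) passed with an adjusted p of 0.0445, but no fit with 1 array left out kept the call, the adjusted p then lying between 0.0707 (without untreated replicate C) and 0.144 (without doxycycline replicate B). The accessory subunit genes ATP6AP1 and ATP6AP2 had changes of -0.14 and -0.15 with adjusted p of 0.0627 and 0.0711, and ATP6V0D1 one of 0.09 (adjusted p = 0.159), each with groups that did not overlap.

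TFEB, the transcription factor named above, had 5.60, 5.59 and 5.60 untreated and 5.55, 5.57 and 5.52 in doxycycline, both means within the background range (log2 change -0.05, adjusted p = 0.466). Of its 54 rows 14 had a group mean above that range, and 12 of these were measured lower, with a median log2 change of -0.33. A row that passed this filter through 1 group alone could only be measured towards that group. Over all 54 rows 27 were measured higher and 27 lower, with a median log2 change of -0.003. No TFEB row passed the test over rows. MCOLN1, the calcium channel of the lysosomal membrane, had 7.95, 8.02 and 7.89 untreated and 8.05, 7.93 and 8.04 in doxycycline. Its groups overlapped, with a log2 change of 0.06 and a 95% interval of -0.05 to 0.17 (adjusted p = 0.595).

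Among the 3 sorting receptors SORT1 rose and the mannose 6-phosphate receptors did not pass. SORT1 encodes sortilin, which carries prosaposin, acid sphingomyelinase and other cargo from the Golgi towards the lysosome. Its values were 7.36, 7.28 and 7.39 untreated and 8.12, 8.04 and 8.19 in doxycycline. The groups lay far apart (7.34 ± 0.056 and 8.12 ± 0.075, SD, n = 3), a log2 change of 0.77 (SE 0.048, 95% interval 0.66 to 0.88), or 1.71-fold higher, with an adjusted p of 3.80e-05.

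Of the 59 rows of SORT1, 44 had a group mean above the background range, and 43 of them were measured higher, with a median log2 change of 1.00. A row that passed this filter through its doxycycline mean alone could only be measured higher. In the test over rows 31 were called higher, 21 exon regions and 10 junctions, while 0.451% of all rows and 0.558% of rows that name 1 gene rose. Of the 31, 3 had untreated means within the background range, and in 1 of these the doxycycline mean also lay within it. For the other 2 the rises were at least 1.14-fold and at least 1.73-fold against its top. The exon region row PSR01045967 had 6.90, 6.74 and 6.81 untreated and 8.02, 8.13 and 8.25 in doxycycline (log2 change 1.31, adjusted p = 0.00373). IGF2R and M6PR, the 2 mannose 6-phosphate receptors, had changes of -0.10 (adjusted p = 0.242) and 0.01 (adjusted p = 0.960), with 95% intervals of -0.20 to 0.00 and -0.11 to 0.12.

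**Figure D3:**
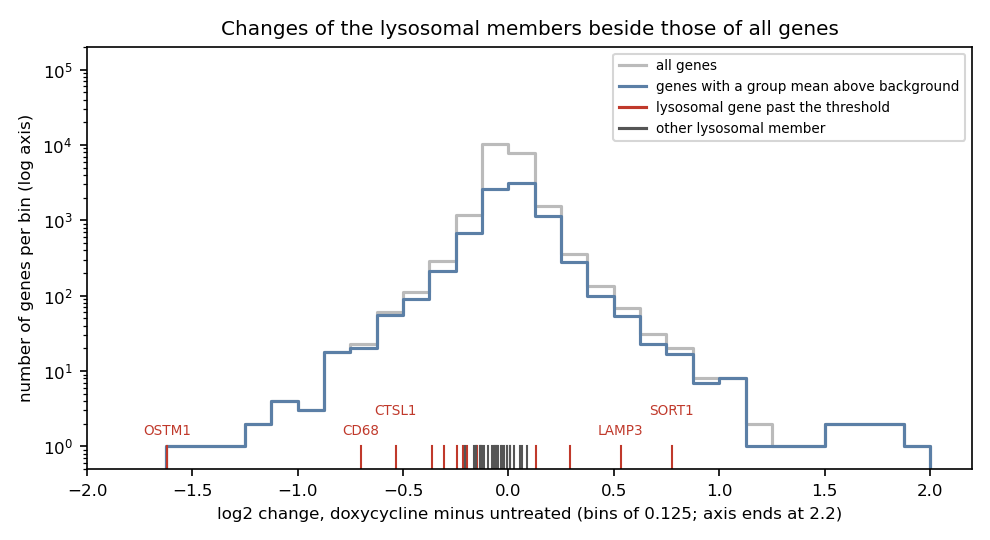
Number of genes (log axis) in bins of log2 change, doxycycline minus untreated, for all 22085 genes and for the 8518 with a group mean above the background range, with each lysosomal member drawn as a tick at the foot and red where it passed the threshold. Most members lie within 0.25 of 0, OSTM1 at -1.62 marks the left end of the distribution, and MIR200C at 4.57 lies beyond the right edge.

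Over all member rows, 39 of 1824 rose and 33 fell, where 0.451% of all rows rose and 0.277% fell. The risen rows were in SORT1 (31), LAMP3 (7) and ATP6V1H (1), and the fallen ones in OSTM1 (18), CD68 (7), CTSL1 (7) and PSAP (1). These counts dropped with fewer arrays: without untreated replicate A, B or C 11, 22 and 12 rows rose and 15, 23 and 14 fell, and without doxycycline replicate A, B or C 14, 8 and 9 rose and 18, 14 and 21 fell. The shares over all rows in those fits are not given here, so whether the drop was particular to member rows cannot be told. When each row was set against the mean of its gene, 27 member rows departed from it, 22 of OSTM1 and 5 of SORT1, where 0.186% of all rows tested did. That count was 5 to 18 in the 6 fits with 1 array left out. In OSTM1 11 of the 22 fell more than the gene mean, and 10 of the 22 lay within the background range. All 5 of SORT1 lay within that range.

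The treated arrays were not alike for these genes. The mean log2 intensity over the 40 members was 8.21, 8.20 and 8.20 in untreated cultures, in the order A, B, C, and 8.09, 8.05 and 8.15 in doxycycline cultures. Within the doxycycline group, array C was the highest in 25 members and array B the lowest in 25, and among the 9 fallen members array C was the highest in 7 and array B the lowest in 8. Over all genes array C was the highest of its group in 33.2%, against 62.5% of the members. The share of all genes with array B lowest is not given here. Without array C the counts were 3 rises and 9 falls among the members, and over all genes 3.64% rose and 2.69% fell.

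Promoter windows of 33 of the 41 genes were found in RefSeq's table for GRCh38.p14, from 250 bases before to 50 after each transcript start, 47 windows in all. They were searched for CACGTG, the core of the motif that TFEB is known to bind, and for TCACGTGA, which contains it. Both read the same on either strand. CACGTG was in 12 of the 47 windows (25.5%) and in 7.26% of all 35116 windows, and TCACGTGA in 6 (12.8%) against 0.98%. Of the 6 fallen genes with a window, CTSA and LAMP1 held the core, and OSTM1, CD68, CTSL1 and GUSB did not. Neither window of SORT1, the only risen gene with any, held it. A match is a description of letters and not a site.

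Stretches of 30 bases are shown for the fallen genes that hold TCACGTGA and for 3 of the genes that hold it and did not pass, with the match in capitals. They lie at chr20:45891298-45891327 (plus strand) for CTSA, chr13:113297199-113297228 (plus) for LAMP1, chr19:7522598-7522627 (plus) for MCOLN1, chr17:80101493-80101522 (plus) for GAA and chr6:159969042-159969071 (plus) for IGF2R. The log2 changes of these genes were -0.22, -0.20, 0.06, 0.01 and -0.10, in that order, and GAA lay within the background range.
CTSA: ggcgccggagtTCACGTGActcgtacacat
LAMP1: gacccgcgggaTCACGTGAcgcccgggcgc
MCOLN1: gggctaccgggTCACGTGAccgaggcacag
GAA: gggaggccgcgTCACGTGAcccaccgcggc
IGF2R: ccgggcggctgTCACGTGAcgcggttccgg

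Beyond the members, 188 other genes of lysosomal function and autophagy were measured, from 6 lists, and 17 of them rose (9.04%) and 14 fell (7.45%), with a median log2 change of 0.02. Over all genes 6.06% rose and 3.84% fell, and over those with a group mean above the background range 11.7% and 7.47%, so both shares lay between these backgrounds. Without doxycycline replicate B 10 rose and 7 fell, without doxycycline replicate C 10 rose, and without untreated replicate B 11 rose. Over all genes the same fits gave 3.68% higher and 2.24% lower, 3.64% higher and 4.97% higher, in that order.

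Other hydrolases and their cofactors gave 3 rises (9.09%) and 5 falls (15.2%) among 33. The background shares for each list that follows are those just given, and no difference from them was tested. FUCA1, the alpha-fucosidase gene, rose from 5.93 ± 0.046 to 6.74 ± 0.042, a measured log2 change of 0.81 (adjusted p = 1.18e-05) and at least 1.30-fold against the top of the background range. GNPTAB, which encodes the enzyme that begins the mannose 6-phosphate tag, rose by 0.29 (adjusted p = 0.00195). The cathepsin O gene CTSO fell by 0.42, the carboxypeptidase gene SCPEP1 by 0.38 and the legumain gene LGMN by 0.36 (adjusted p = 0.0150, 0.0128 and 0.00672).

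Among 33 other membrane proteins and transporters, 3 rose (9.09%) and 2 fell (6.06%). NPC1, the cholesterol exporter of the late endosome and lysosome, fell from 9.55 ± 0.037 to 8.94 ± 0.017 (log2 change -0.61, adjusted p = 2.37e-05). MCOLN3, a channel related to MCOLN1, rose from 5.52 ± 0.16 to 6.52 ± 0.12, a measured log2 change of 1.00 (adjusted p = 2.01e-04) and at least 1.12-fold against the top of the background range. ATP13A2, a polyamine transporter of the lysosome, rose by 0.33 (adjusted p = 0.00195).

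In the other lists the changes were smaller. Of 24 further V-ATPase genes 3 rose (12.5%) and none fell, with ATP6V1A, the catalytic subunit, at a log2 change of 0.18 (adjusted p = 0.0334). Of 36 genes for sorting and fusion 1 rose (2.78%) and 2 fell (5.56%), the latter HPS5 by 0.33 and AP1M1, a subunit of the adaptor AP-1, by 0.28 (adjusted p = 0.00134 and 0.00793). Of 24 genes for nutrient sensing and MiT/TFE factors 4 rose (16.7%) and 2 fell (8.33%). These included MITF, with a measured log2 change of 0.33 (adjusted p = 5.63e-04) but only at least 1.04-fold against the top of the background range, and TFE3, which fell by 0.18 (adjusted p = 0.0132), both relatives of TFEB. Of 38 autophagy genes 3 rose and 3 fell (7.89% each), with the protease gene ATG4A at 0.39 (adjusted p = 7.68e-04) and the cargo receptor gene SQSTM1 at -0.21 (adjusted p = 0.00725).

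**Figure D4:**
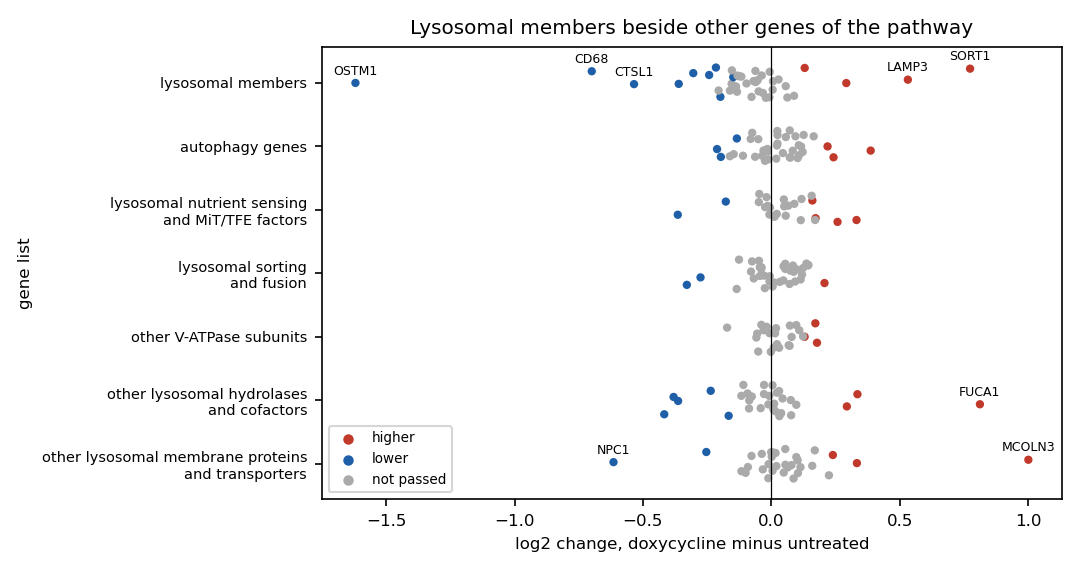
Log2 change of each of the 40 lysosomal members and of the 188 genes in 6 other lists, 1 point per gene, coloured where it passed the threshold, with a vertical scatter for legibility and names beside changes larger than 0.5. OSTM1 lies apart from every other point, and NPC1 and MCOLN3 hold the lowest and highest values outside the members.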

How the data were processed

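The deposited file holds log2 intensities, 1 value per row and array. The submitters' processing notes name Partek alone, without a version or a step. The sources used here do not give how the authors normalized and summarised the arrays, or on which genome build. The log2 scale was inferred from the values, which span the usual range of such arrays. Gene symbols come from the platform annotation, which can be old. Of 925032 rows 345 were controls, 672085 named 1 gene and 39483 several. Arrays were grouped by their titles and used without further normalization, and no 2 arrays shared more than 0.00692% of values.

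Fits used lmFit and eBayes in limma 3.58.1 (R 4.3.3) with group as the single term, over genes, over rows, and over rows minus their gene's mean in genes with at least 3 rows. The steps were tested on simulated data. Figures were drawn with matplotlib 3.10.9. The members and lists were chosen with earlier results of these data known. All members could be named, and of each other list up to 4 genes per direction with the smallest p. Of the rows named, both brighter OSTM1 rows that did not pass were chosen after their values were seen. Alternatives changed the row summary, filters, normalization, variance model and arrays. Replicate letters were not treated as pairs, since they are not stated to pair cultures. The deviations of same-letter arrays had correlations of -0.17, -0.03 and 0.22. Those of untreated and doxycycline arrays with unlike letters ran from -0.41 to 0.44.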

Additional observations from a re-analysis of the deposited data

How the results depend on the processing

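OSTM1, CD68, CTSL1 and SORT1 passed under all 16 alternatives run, with log2 changes from -2.56 to -1.34, -0.95 to -0.61, -0.62 to -0.48 and 0.74 to 1.10. PSAP passed under 14 of 16 and LAMP3 under 14 of the 15 in which it was measured. ASAH1 passed under 12, LAMP1 under 11, HEXA under 8, CTSB and GUSB under 6, CTSA under 5 and ATP6V1H under 3 of 16. No called member changed its direction. In this section, brighter rows are those whose mean over the 6 arrays exceeded the median row mean of 5.19. That cut lies within the background range, unlike the one used for brighter rows in the Results. Against 4 members higher and 9 lower, the median of a gene's rows gave 1 and 4, junction rows alone 2 and 4, and brighter rows alone 3 and 5. Rows above the background range alone, an alternative chosen after seeing the data, gave 2 and 4. Calls over all genes also dropped, from 6.06% higher and 3.84% lower to 1.95% and 1.2% with the median, 2.62% and 1.44% with junction rows, 4.98% and 3.01% with brighter rows and 5.12% and 3.24% with rows above the background range. Quantile normalization, and a test of the genes above the background range alone, each gave 3 members higher and 11 lower, adding ATP6AP1 and ATP6AP2. Over all genes tested, 5.81% were higher and 4.33% lower with quantile normalization, and 14.3% and 9.13% in the other test. That other test held 34 members and left out LAMP3. With 1 array left out, 2 to 3 rose and 4 to 9 fell, and over all genes 3.64% to 4.97% rose and 2.24% to 3.61% fell. The cause of these differences in counts was not tested.

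Against 17 other lysosomal genes higher and 14 lower, the counts were 8 and 5 with the median of rows, 8 and 5 with junction rows, 11 and 13 with brighter rows, 11 and 9 with rows above the background range, and 10 to 13 and 7 to 12 with 1 array left out. Member rows gave 8 to 22 higher, 14 to 23 lower and 5 to 18 uneven with 1 array left out, and 5 uneven among brighter rows. With the replicate block, which leaves fewer residual degrees of freedom, 7 rows were higher, 16 lower and 1 uneven. In that fit 3 members were higher and 6 lower, and over all genes 5.2% were higher and 3.45% lower. For the row counts, the shares over all rows in these fits are not given here. The number of arrays and the background range limit all of these values.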
